A study of Mus musculus with 20 samples.

Results

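Regulators of G-protein signalling (RGS proteins) were examined through the transcripts of 3 genes, Rgs8, Rgs5 and Rgs20, in a survey of N6-methyladenosine (m6A) in the mouse brain. Every row with 1 of these symbols was taken from the lists of edited sites deposited for cortex, hippocampus and cerebellum. The genes had been chosen by their site numbers in these same lists, so their numbers, positions and levels are given as a description and without a test. They accounted for 105 of the 42730 rows, 86 of the 25978 different sites and 3 of the 3731 genes. Rgs8 held 57 of the 86 sites, Rgs5 26 and Rgs20 3.

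Sites came from bulk poly(A) RNA-seq of whole cortex, whole hippocampus and whole cerebellum of mice with a tamoxifen-inducible transgene. The transgene encoded APOBEC1-YTH, in which the cytidine deaminase APOBEC1 is joined to a YTH domain that binds m6A, and cytidines close to an m6A are then read as uridines. The background control, APOBEC1-YTHmut, was expressed in other mice given the same tamoxifen, 20 mg/kg every 24 h for 5 days by intraperitoneal injection, and tissue was collected 7 days after dosing ended. There were 4 APOBEC1-YTH libraries per region, from 4 animal numbers that recur in every region, and the APOBEC1-YTHmut libraries numbered 3 for cortex, 2 for hippocampus and 3 for cerebellum. The sources used here give neither the promoter that drives the transgene nor the age of the mice. Each region is represented by 1 list with 1 editing level per site, in percent, read as the share of edited reads in the region's APOBEC1-YTH libraries combined. No value per animal and no read depth came with the lists, so no difference below could be set against the spread between animals. No level below 1% was listed, and the absence of a site from a list does not show that the RNA lacks m6A there. In these bulk tissues, fewer cells of a type and less RNA per cell cannot be told apart, and the abundance of each transcript was not analysed here.

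RGS proteins speed the hydrolysis of GTP by the alpha subunits of heterotrimeric G proteins and so shorten signals that start at G protein-coupled receptors. Rgs8 and Rgs5 encode small proteins of the R4 subfamily, which act on alpha subunits of the Gi and Gq classes. RGS8 is known as a regulator in cerebellar Purkinje cells, and Rgs5 is widely used as a marker of pericytes, the contractile cells on brain capillaries. RGS20, of the RZ subfamily, is known for its action on the Gz alpha subunit. m6A is laid down on messenger RNA by a methyltransferase complex, is often found near stop codons and in the 3′ untranslated region, and is bound by YTH proteins that influence the decay and translation of the transcript.

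Rgs8 sites were nearly all cerebellar. The cortical list held 1 Rgs8 site, the hippocampal list 1 and the cerebellar list 57. On the scale of sites plus 1, the cerebellar number was 29.0-fold the next highest. Across all listed genes, 11.2% had a cerebellar number at least 2-fold that in each other region on this scale, and 59.7% had any cerebellar site. Rgs8 ranked sixth by number of cerebellar sites, a place it shared with 3 other genes, and 0.404% of the 2228 genes in that list had as many. Because the gene was picked for this pattern, the rank is not evidence of its own.

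The other lists held Rgs8 only at positions that were among its most edited ones in cerebellum. The single cortical site, at chromosome 1, position 153697427 (mm10, plus strand), had a level of 2.78% in cortex and 18.9% in cerebellum, where it was the highest of the 57. The single hippocampal site, at position 153697528, had a level of 3.12% in hippocampus and 12.1% in cerebellum, where its rank was 4. The cerebellar level was thus 6.79-fold the cortical one at the first position and 3.88-fold the hippocampal one at the other. Both positions lie close to the 3′ end of the gene, at distances of 242 and 141 nt. The remaining 55 sites were listed in cerebellum alone, as were 35.3% of the cerebellar sites of all genes. No Rgs8 site was in all 3 lists, beside 19.0% of the sites of all genes.

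Recurrence in the forebrain lists was also set out by the cerebellar level of the site. Of the 5 Rgs8 sites at 10% or more in cerebellum, 1 was also listed in cortex and 1 in hippocampus. Over all genes, 75.2% of the 1024 cerebellar sites at 10% or more were also listed in cortex and 63.8% in hippocampus. None of the 13 Rgs8 sites at 5 to 10%, the 28 at 2 to 5% or the 11 at 1 to 2% was in either forebrain list, whereas for all genes the share also listed in cortex was 67.0% in the first of these classes and 45.1% in the last. Sites of 1 transcript share its read coverage, so these are not independent observations, and as the forebrain listings were part of the choice of Rgs8, nothing is read from this contrast.

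The levels of the Rgs8 sites were ordinary for cerebellum although their number was not. Their median was 3.38%, with quartiles of 2.12% and 5.79% and a range of 1.01% to 18.9%. Over all 11391 cerebellar sites the median was 3.36%, with quartiles of 2.12% and 5.63%. Levels of 10% or more were reached by 5 of the 57 Rgs8 sites (8.77%), against 8.99% of all cerebellar sites. In 11.8% of cerebellar genes the highest site was at least as strong as that of Rgs8.

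**Figure D1:**
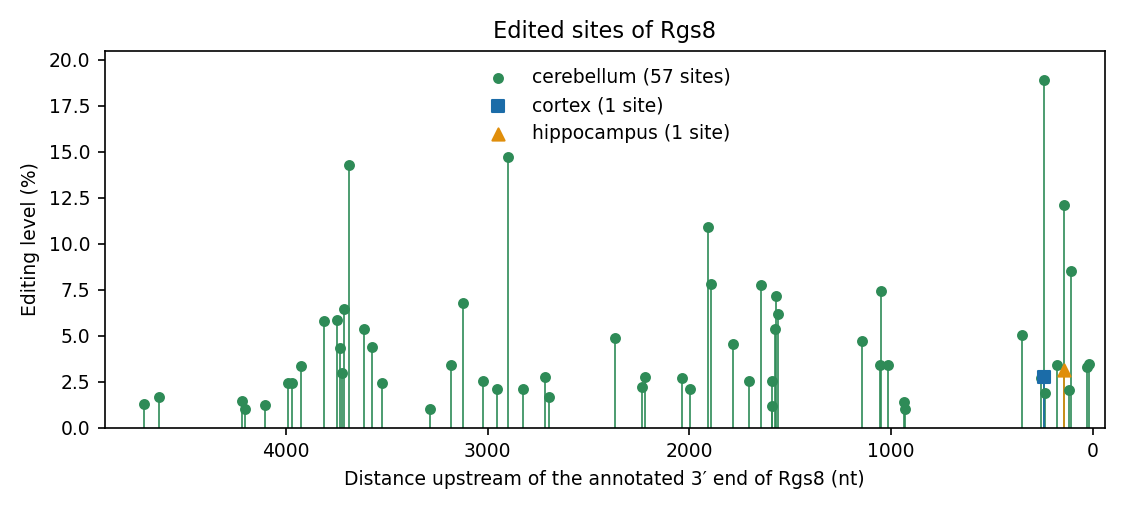
Editing level in percent (vertical axis) of each listed Rgs8 site against its distance in nt from the 3′ end of the gene span (horizontal axis, 3′ end at the right), with green circles for cerebellum, a blue square for cortex and an orange triangle for hippocampus; each level is 1 pooled value without error. The 57 cerebellar sites spread over 4687 nt, and the single cortical (2.78%) and hippocampal (3.12%) sites sit under cerebellar sites at 18.9% and 12.1%.

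The Rgs8 sites lay in the last part of the gene. Rgs8 (gene ID 67792) spans chromosome 1, positions 153652959 to 153697669 in GRCm38.p6, the assembly of mm10, a length of 44711 nt on the plus strand. The edited positions ran from 153692964 to 153697650, which is 4705 to 19 nt upstream of the 3′ end. Exons and untranslated regions were not assigned, since the gene table used gives only gene spans. Per 1 kb window, counted from the 3′ end, there were 12, 15, 9, 16 and 5 sites. The most distant window was the weakest: its 5 sites had levels of 1.04% to 1.68%, while the medians of the other windows, from the 3′ end outward, were 3.35%, 4.74%, 2.71% and 3.87%. Over the 57 sites the Spearman correlation of level with distance was -0.24, a description of sites that share a transcript.

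The strongest sites of Rgs8 were scattered over this stretch. After the first, at 18.9%, came position 153694771 at 14.7% (2898 nt from the 3′ end) and position 153693981 at 14.3% (3688 nt). Next were the site shared with hippocampus, at 12.1%, and position 153695760 at 10.9% (1909 nt). The next 5 had levels of 8.53%, 7.80%, 7.76%, 7.43% and 7.18%. Each of the 4 windows nearest to the 3′ end thus held at least 1 site above 10%.

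Edited cytidines of Rgs8 often lay close to one another. Of its 57 cerebellar sites, 39 (68.4%) had another within 50 nt, and the median gap was 57 nt. This spacing was common among heavily listed genes: of the 6167 sites in the 308 genes with 10 or more cerebellar sites, 68.8% had such a neighbour. In the 23 genes with 40 or more cerebellar sites, the class of Rgs8, the share was 76.8% and the median gap per gene 44 nt, a closer spacing than in Rgs8. At 12.2 sites per kb of edited stretch, Rgs8 was above the median of 7.20 for the 308 genes with 10 or more cerebellar sites, and 25.3% of these were as dense. For the 23 genes with 40 or more the median was 8.28. Split at gaps above 50 nt, the 57 sites formed 32 runs, with single sites counted as runs, and 6 of these held 3 or more sites. The densest of these 6 had 5 sites in 29 nt, between positions 153696078 and 153696106. Its levels were 2.54%, 1.19%, 5.37%, 7.18% and 6.18% from 5′ to 3′. Another had 5 sites in 59 nt, ending at position 153693981, with levels of 5.87%, 4.33%, 2.97%, 6.45% and 14.3%. Both runs thus held weakly and strongly edited cytidines within a short distance. The run around the strongest site had levels of 2.69%, 18.9% and 1.92% within 22 nt. A site is an edited cytidine, and several can lie near the same m6A, so 57 sites are not 57 methylated adenosines.

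Rgs5 was edited in all 3 regions. Cortex listed 21 of its sites, hippocampus 12 and cerebellum 10. Of all genes, 84.8% had a cortical site and 68.3% a hippocampal one, and 5.37% of cortical, 11.8% of hippocampal and 13.8% of cerebellar genes had at least as many sites as Rgs5. The cortical number was 1.69-fold the next on the scale of sites plus 1, short of the 2-fold set for calling a region the leading one. Rgs5 (gene ID 19737) spans positions 169655501 to 169695813 of chromosome 1 on the plus strand. Its sites lay between positions 169692869 and 169695269, which is 2944 to 544 nt upstream of the 3′ end, so none of them was as near to the 3′ end as the strongest Rgs8 site, at 242 nt.

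Levels of Rgs5 were lowest in cortex by their median and highest in cerebellum. The cortical median was 3.77% (range 1.23% to 8.23%), the hippocampal 4.0% (1.80% to 13.4%) and the cerebellar 5.31% (1.67% to 11.3%). The medians over all sites of these regions were 2.91%, 2.82% and 3.36%. The ranges of the 3 regions overlapped between 1.80% and 8.23%, and the highest hippocampal and cerebellar levels lay above that stretch. Among sites at 5% or more the order differed, with medians of 5.34% in cortex, 7.14% in hippocampus and 7.04% in cerebellum. These medians are over different sets of sites, so the sites common to the lists were compared next.

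At 5 positions Rgs5 was edited in every region. At position 169693019 the cortical level was 4.50%, the hippocampal 2.41% and the cerebellar 3.88%. At position 169694312 it was 6.12%, 7.14% and 5.17% in that order, and at position 169694503 it was 5.31%, 1.80% and 7.25%. Hippocampus was lowest at the first and the last of these, and cerebellum at the other. At position 169695094 the levels were 3.10%, 2.61% and 7.14%, and at position 169695214, the strongest Rgs5 site of cortex and of cerebellum, they were 8.23%, 5.70% and 11.3%. Cerebellum was the highest region at 3 of the 5 positions, cortex at 1 and hippocampus at 1. The 5 positions were 19.2% of the 26 Rgs5 sites, beside 19.0% over the sites of all genes.

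The pairs of regions were then set side by side; each pair shares a list with the others, so they are not independent. Cortex and cerebellum shared 9 Rgs5 sites, which were 42.9% of the cortical sites and all but 1 of the 10 cerebellar sites, and 7 of the 9 were higher in cerebellum. Over all genes the shared sites were 37.1% of the cortical and 58.2% of the cerebellar ones. Over all genes, 52.6% of sites shared by these regions were higher in cerebellum. The widest gap was at position 169695269, the Rgs5 site nearest to the 3′ end, with 1.37% in cortex and 6.93% in cerebellum. The median levels at the 9 sites were 3.92% and 5.17%. Cortex and hippocampus shared 8 sites, 38.1% of the cortical and 66.7% of the hippocampal ones, and 5 of the 8 were higher in cortex, beside 51.2% over all genes. The overlap over all genes was 52.5% of cortical and 69.7% of hippocampal sites. Hippocampus and cerebellum shared only the 5 sites given above, which were 41.7% of the 12 hippocampal sites, beside 42.3% over all genes, and 4 of the 5 were higher in cerebellum, beside 51.9% over all genes. With 1 pooled value per region, none of these differences could be tested, and counts as small as 7 of 9 are no more than a description.

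Of the Rgs5 sites in a single list, cortex held 9, hippocampus 4 and cerebellum 1. Over all genes, 48.1% of the 14168 sites in a single list were in cortex alone, so a large cortical part is common to the lists. The 9 in cortex had a median of 2.94% and reached 5.34%, while the 5 cortical levels at sites in every list had a median of 5.31%. Over all genes these medians were 2.46% and 4.0%. In hippocampus the order for Rgs5 was the opposite, with a median of 4.03% at the 4 sites listed there alone and 2.61% at the 5 in every list, against 1.95% and 3.92% over all genes. The strongest of all Rgs5 levels, 13.4% at position 169694223 in hippocampus, was listed in hippocampus alone, 79 nt from the nearest Rgs5 site of another region. Of the 14 sites in a single list, 7 had a site of another list within 50 nt. No share over all genes stands beside this count, and the median gap between cortical Rgs5 sites was 49 nt, so nothing is read from it.

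In places the lists held different cytidines of the same small group. From position 169693519 to 169693588, a run of 5 cortical sites had levels of 5.06%, 2.44%, 5.00%, 2.82% and 7.81%. Hippocampus had 3 sites in the same stretch, at 4.35%, 3.70% and 4.29%, and only the last of them was at a nucleotide that cortex also listed. Cerebellum had 1 site there, at position 169693551, with 4.55% against 2.82% in cortex. In a stretch of 11 nt starting at position 169694302, cerebellum listed 3 sites (5.45%, 4.62% and 5.17%), cortex 2 of these (3.92% and 6.12%) and hippocampus 1 (7.14%).

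**Figure D2:**
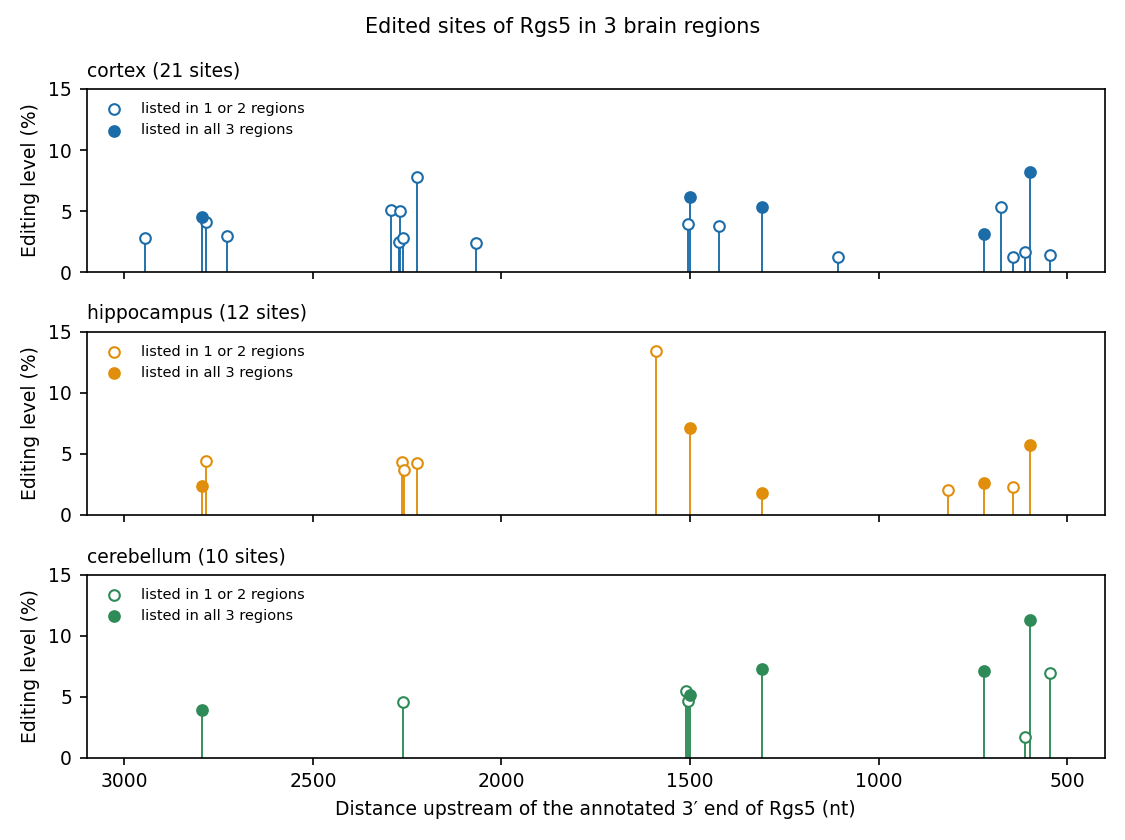
Editing level in percent (vertical axes) of the Rgs5 sites against the distance in nt from the 3′ end of the gene span (horizontal axis), with 1 panel each for cortex, hippocampus and cerebellum; filled points are the 5 positions listed in every region, open points the others, and each level is 1 pooled value without error. The filled point at 599 nt is the highest in cortex (8.23%) and cerebellum (11.3%), and the highest point in hippocampus (13.4%) is open.

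Rgs20 had 3 sites, all in cortex. They lay at positions 4910487, 4910581 and 4910588 of chromosome 1, on the minus strand, with levels of 3.64%, 5.00% and 4.69%. Hippocampus and cerebellum listed none. Rgs20 (gene ID 58175) spans positions 4909573 to 5070299, and the sites were 914, 1008 and 1015 nt upstream of its 3′ end, so that all fell within 102 nt of a gene 160727 nt long. By the same 2-fold measure cortex led for Rgs20, as it did for 24.5% of all genes. A median of 3 sites per gene in cortex and 304 genes with exactly 3 place Rgs20 in the middle of the cortical list. Cortex was also the longest list, with 17878 sites against 13461 and 11391.

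**Figure D3:**
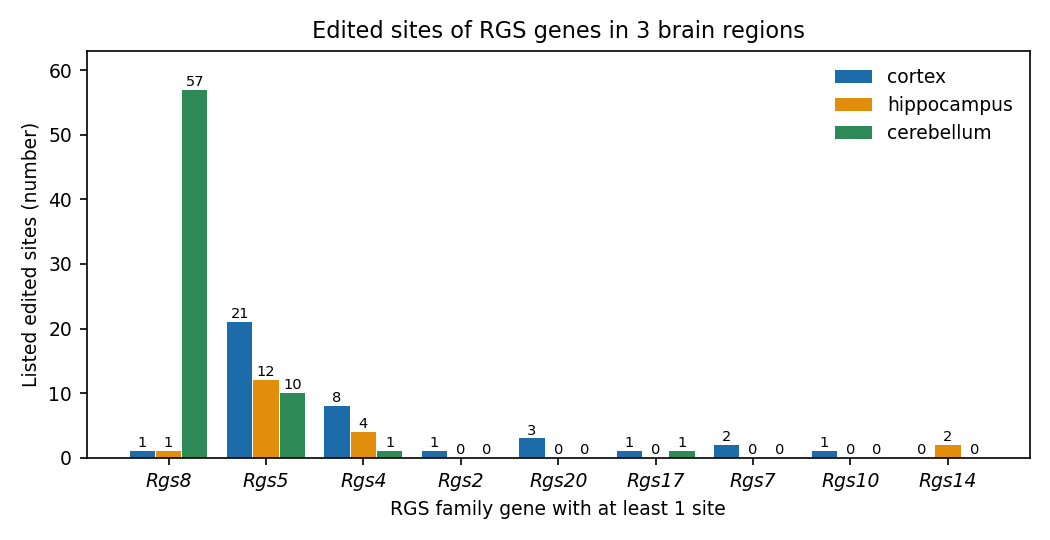
Number of listed edited sites (vertical axis) in cortex (blue), hippocampus (orange) and cerebellum (green) for the 9 RGS family genes with at least 1 site; bars are totals of 1 pooled list per region and have no error. Rgs8 has 57 cerebellar sites against 1 in each other region, Rgs5 has 21, 12 and 10, and the remaining 7 genes have 8 sites or fewer in any region.

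Other genes of the family had fewer sites than Rgs8 and Rgs5. As these 2 were chosen by their site numbers, this order and their share of the family's sites are a description only. Of 20 RGS genes searched for, 9 had a site in any region. No share of all annotated genes stands beside this count, so nothing is read from it. Of the 9, cortex listed 8, hippocampus 4 and cerebellum 4. The regions listed 84.8%, 68.3% and 59.7% of all genes with a site. Rgs5 and Rgs8 together held 22 of the family's 38 cortical sites, 13 of 19 hippocampal ones and 67 of 69 cerebellar ones. The only other RGS genes in the cerebellar list were Rgs4 and Rgs17, with 1 site each. Rgs4, an R4 member abundant in forebrain neurons, had 8 cortical, 4 hippocampal and 1 cerebellar site, the reverse order to Rgs8. Its strongest site, at position 169741529 of chromosome 1, had 14.1% in cortex and 9.23% in hippocampus and was not in the cerebellar list. Its cerebellar site, at 169741795, had 3.92% there, 2.09% in cortex and 1.63% in hippocampus. Rgs17, the RZ relative of Rgs20, had the same nucleotide listed in cortex at 4.35% and in cerebellum at 6.45%. Rgs7 had 2 cortical sites, Rgs2 and Rgs10 had 1 each in cortex, and Rgs14, known as a marker of hippocampal area CA2, had 2 sites in hippocampus (2.38% and 2.01%) and none elsewhere.

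Of the family's genes with a site, 6 were on chromosome 1. That chromosome also holds RGS genes without a site (Rgs1, Rgs13, Rgs16, Rgs18 and Rgs21), so nothing is read from this number. An RGS gene close to Rgs8 and another close to Rgs5 were looked at there. Rgs16 lies 42684 nt beyond the end of Rgs8 and had no site in any list, whereas Rgs8 had 59 rows. Rgs4 lies 45664 nt beyond the end of Rgs5, and had 13 rows to the 43 of Rgs5, with the same order of regions. Whether these neighbours differ in transcript abundance was not tested.

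The partners and targets of RGS proteins were spread over the regions much as other genes were. In 6 lists with 60 other genes of the pathway, 30 genes had a site: cortex listed 26, hippocampus 21 and cerebellum 20. Of all genes with a site, these regions listed 84.8%, 68.3% and 59.7%. No share of all annotated genes stands beside the 30 of 60. Numbers of sites are given from here on in the order cortex, hippocampus, cerebellum. Of the 30, 7 had more sites in cerebellum than in cortex and 20 had fewer, beside 21.5% and 62.0% of all listed genes. Rgs7bp, which anchors R7 proteins at the membrane, had 27, 14 and 36 sites, and the receptor gene Gpr158, an R7 partner, had 25, 7 and 4. Gnb5, the beta subunit bound to R7 proteins, had 6, 4 and 3. Among alpha subunits, the targets of Rgs8 and Rgs5, Gnai1 had 12, 13 and 9 sites, Gnao1 had 9, 7 and 16, and Gnaq had 8, 8 and 6. Gnaz, which encodes the Gz alpha subunit on which RGS20 acts, had 11 cortical and 6 hippocampal sites and none in cerebellum. Rgs20 had none there either, but absence from that list was common, as only 59.7% of all listed genes had a cerebellar site. Among effectors, the phospholipase C gene Plcb4 had 21 sites in cerebellum and none elsewhere, while Plcb1 had 19, 10 and 0. The adenylyl cyclase genes Adcy1 (40, 28 and 5) and Adcy5 (13, 6 and 1) and the GIRK channel gene Kcnj3 (12, 6 and 4) had fewer sites in cerebellum.

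Purkinje cell markers with a site, like Rgs8, had more sites in cerebellum than in cortex. This held for all 11 of the 15 markers that had a site, beside 21.5% of all listed genes. These are markers of a cerebellar cell type, listed with earlier results of these data known, so nothing is read from that contrast. Their summed numbers were 11, 6 and 227. Among them Calb1 (calbindin) had 1, 0 and 45 sites, Rora 5, 0 and 37, and Car8 0, 0 and 30. The difference was small for Aldoc (1, 1 and 2) and Pcp4 (0, 1 and 2), and Pcp2, Slc1a6, Skor2 and Foxp2 had no site. Of 9 markers of cerebellar granule cells, the most numerous neurons there, 2 had a site: Zic1 with 0, 0 and 2 and Etv1 with 5, 3 and 2. By the same measure 1 had more sites in cerebellum and 1 had fewer, too few for a contrast with the Purkinje cell markers. Plcb4 belongs both to the Purkinje cell marker list and to the effectors. The part of cell composition in the Rgs8 numbers was not tested.

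Other mural cell genes were also looked up. None of 14 markers of pericytes and smooth muscle, among them Pdgfrb, Kcnj8, Abcc9, Vtn and Acta2, had a site in any region. The share of all annotated genes with a site is not given here, so this count has no background and nothing is read from it. Of 11 endothelial markers, Cldn5 (2, 2 and 1 sites), Slc2a1 (3, 3 and 2) and Slco1a4 (3, 1 and 2) were listed. The defining genes Pecam1, Cdh5, Flt1 and Kdr were not, and this count has no background either. The lists do not say which cells carried the edited Rgs5 transcripts.

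**Figure D4:**
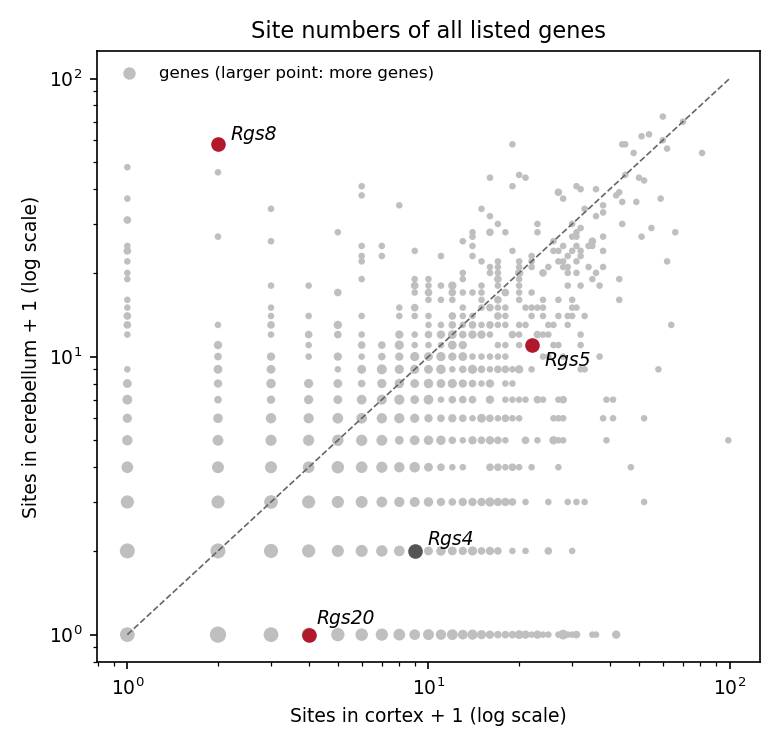
Number of sites plus 1 in cerebellum (vertical axis, log scale) against that in cortex (horizontal axis, log scale) for the 3731 listed genes, with grey points sized by the number of genes at that place, Rgs8, Rgs5 and Rgs20 in red, Rgs4 in dark grey and a dashed line of equal numbers. Rgs8 (1 and 57 sites) lies far above the line, Rgs5 (21 and 10), Rgs4 (8 and 1) and Rgs20 (3 and 0) below it.

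Some genes resembled the members in their numbers over the 3 regions. Likeness was measured as the distance over log2 of sites plus 1 in 3 regions, among the 1144 other genes with 10 or more sites in all, or all 3730 others for Rgs20. With 3 values per gene this is a coarse measure. Closest to Rgs8 were the ceramide kinase gene Cerk (2, 1 and 33 sites, distance 0.97), Calb1 (1, 0 and 45, distance 1.05), Shisa6 (0, 1 and 30), the potassium channel subunit gene Kcng4 (0, 0 and 47) and Sbk1 (1, 0 and 26), against a median distance of 4.67 over all candidates. High cerebellar numbers with so few sites elsewhere were uncommon: of the 113 genes with 20 or more cerebellar sites, 10, or 8.85%, had at most 1 in each other list, a limit set after the numbers of Rgs8 were known. Closest to Rgs5 were Crk (21, 13 and 8 sites, distance 0.31), Isca1, Dusp3, Usp46 and Zfand5, with distances up to 0.39; measured on shares of sites, none of these 5 stayed among the closest. For Rgs20, 37 genes had exactly the same numbers; among those nearest in mean level to its 4.44% were Gfra2, Nsd1, Lrrtm3 and Lix1, and on shares of sites none of the 5 chosen for Rgs20 stayed.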

How the data were processed

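Poly(A) RNA-seq libraries were made with a directional kit, per the labels' protocols. The submitters' processing notes name STAR 2.7.5 and mm10. Editing in APOBEC1-YTHmut mice was the background in site calling, per the labels. Caller, thresholds, minimum depth and pooling of libraries: not given in the sources used here. The authors deposited 1 list per region with a fraction between 0 and 1 for each site, without a header, printed here as percent; depth is unknown. Positions are 1-based: at 29 of 29 listed sites inside a RefSeq promoter window of the same strand (GRCm38.p6), the base at the position so counted was C.

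Rows were selected by symbol, a site was counted as shared at the same strand and nucleotide, and gene spans came from the GRCm38.p6 RefSeq table. No test was made, since each region has 1 pooled list and the members were chosen from it. Members and gene lists were chosen with earlier results of these data known. For the number of list genes with any site, no share of all annotated genes is given as background. The rule named the members, every other RGS gene with a site, up to 4 genes of each other list by number of sites, and 5 like genes per member; some genes that the rule named are not reported here. Some genes named as absent, and Adcy5, Kcnj3, Gnb5 and some markers, were added as examples of their lists. Alternatives were a level of at least 5% or 10%, merging within 10 nt, sharing within 10 or 50 nt, means, scaling to the cerebellar median and likeness by shares of sites. The helper functions were checked on simulated positions. Software was matplotlib 3.10.9, scipy 1.17.1, pandas 2.3.3 and numpy 2.4.6 under Python 3.11.15.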

Additional observations from a re-analysis of the deposited data

How the results depend on the processing

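Of 67 alternative values, 44 lay within 1.5 times the reported one, a yardstick used because no replicate spread exists. Many of these could not have moved, such as Rgs20 numbers of 0, the mean of a single site and cerebellum scaled to its own median. The count of 44 is therefore no measure of stability. Most of the values that moved further came from the level minimums, which remove sites by construction. At 5% or more, Rgs8 kept 0 cortical, 0 hippocampal and 18 cerebellar sites, Rgs5 kept 7, 3 and 6 in that order, and Rgs20 had 1 in cortex; the median level became 7.30% for Rgs8 in cerebellum and 7.14% for Rgs5 in hippocampus. At 10% or more, Rgs8 had 0, 0 and 5 sites, Rgs5 had 0, 1 and 1, and Rgs20 had 0. The cortical lead of Rgs5 in site number was thus 7 against 6 at 5% and absent at 10%. Within 10 nt, 8 hippocampal Rgs5 sites had a cerebellar counterpart, and 10 within 50 nt; within 50 nt, 15 cortical ones had a hippocampal and 16 a cerebellar counterpart. Merging within 10 nt, means and scaling moved no value by more than 1.5 times. Likeness by shares of sites kept 3 of the 5 genes named for Rgs8, 0 for Rgs5 and 0 for Rgs20. No paired analysis was possible because each region has 1 pooled list without values per animal.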

Other observations

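Of 14 beta and gamma subunit genes, 8 were listed: Gnb1 had 11 cortical, 13 hippocampal and 11 cerebellar sites, Gng2 had 5, 2 and 0, Gng12 had 3, 0 and 1, and Gnb4 had 3, 0 and 0. Gng13 was the only one of the 8 in the cerebellar list alone, with 2 sites, and Gng7 the only one in hippocampus alone, with 1. Of 7 receptor kinase and arrestin genes, Grk3 had 4 cortical sites and Arrb1 had 3, 2 and 2. None of 6 genes for GoLoco proteins and exchange factors, Pcp2 among them, had a site in any region. These counts of listed genes also have no share of all annotated genes beside them.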
